A study of Homo sapiens with 4 samples.

Results

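The 59 genes described here encode the machinery that prepares origins of DNA replication, opens them and copies the DNA at the fork, together with enzymes that supply deoxynucleotides, proteins that copy chromatin and DNA methylation behind the fork, and cyclin E and E2F1, which act at the passage from G1 to S phase. They were taken by gene symbol from the 29209 genes listed in the files, each was found exactly once, and all 59 passed the filter on low counts, beside 15113 genes in all. The measurements come from polyA RNA-seq of HaCaT, an immortalised line of human epidermal keratinocytes that keeps dividing in culture. A line given lentivirus to overexpress TCN1 (TCN1_OE, 2 libraries) was compared with a negative control line (NC, 2 libraries). The aim was to read the effect of TCN1, a secreted vitamin B12-binding protein, on the transcriptome. An effect of TCN1 and any other difference between the lines cannot be told apart here. Both lines were kept in DMEM with 10% fetal bovine serum, RNA was taken after 48 h, and 1.5 µg of RNA entered each library. The labels do not say whether a line is a clone or a pool, or which control construct NC carries. Nor do they say that the libraries of a line are separate cultures, and each p-value therefore reflects library-to-library spread that may be technical.

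As background, a cell licenses its origins in G1. The origin recognition complex marks the origin, CDC6 and CDT1 join it, and the ring of MCM2 to MCM7 is loaded around the DNA. In S phase the kinase CDC7 with DBF4, helped by MCM10, lets CDC45 and the GINS complex bind the ring and turn it into a moving helicase. DNA polymerase alpha with primase starts each strand, polymerases delta and epsilon extend it while tethered to the sliding clamp PCNA, and most of these genes are known targets of E2F transcription factors in dividing cells, basal keratinocytes included.

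Library totals ran from 11593377 to 19973550 counts. TCN1 itself had 50 and 17 counts in NC and 1700 and 1253 in TCN1_OE, a log2 fold change of 5.48 ± 0.20 (SE; edgeR adjusted p 2.4e-06). The labelled cell type was borne out by its markers: 14 keratinocyte genes summed to between 8940 and 10556 FPKM in each library. FPKM divides the fragments of a gene by its length in kilobases and by the total of the library. The listed leukocyte, endothelial and melanocyte markers summed to at most 3.34, 1.40 and 3.09 FPKM, and the 6 listed fibroblast markers to between 11.2 and 14.6 FPKM, most of it FBLN1, with 0 counts of THY1 in both NC libraries. Mitochondrially encoded genes made up 5.33% and 5.13% of the NC counts and 6.04% and 5.65% of the TCN1_OE counts, so this share was higher in the same libraries in which the replication genes lay lower. Its part in the results below was not tested.

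The replication genes took a smaller share of the RNA in the TCN1_OE line. Together they held 0.610% and 0.618% of all counts in the NC libraries and 0.494% and 0.493% in the TCN1_OE libraries, or 0.614 ± 0.0053% against 0.494 ± 0.0008% (SD, n = 2), which is 19.6% lower. The Wilson 95% intervals of these shares, which cover counting error only, ran from 0.607% to 0.622% in NC and from 0.490% to 0.498% in TCN1_OE. Of the 59 genes, 58 had a negative log2 fold change (TCN1_OE over NC), against 49.7% of all genes tested. The median was -0.30, with values from -0.64 for MCM10 to 0.05 for RPA3, beside a median of 0.0016 over all genes tested. CDC6 fell, as the only member with an edgeR adjusted p under 0.05, the threshold for a call, where 0.212% of all genes tested were called lower and 0.285% higher. At an unadjusted edgeR p under 0.05, 38 members lay lower and 0 higher, where 6.81% and 6.00% of all genes tested did so. In 53 members both TCN1_OE libraries lay below both NC libraries on the CPM scale, where 21.8% of all genes tested did so, and in 0 members both lay above, where 21.2% did. The exceptions were ORC5, PRIM1, PRIM2, RPA3, LIG1 and TK1, whose groups overlapped. In RNA from a whole culture, fewer cells in S phase and less of these transcripts per cell cannot be told apart.

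**Figure D1:**
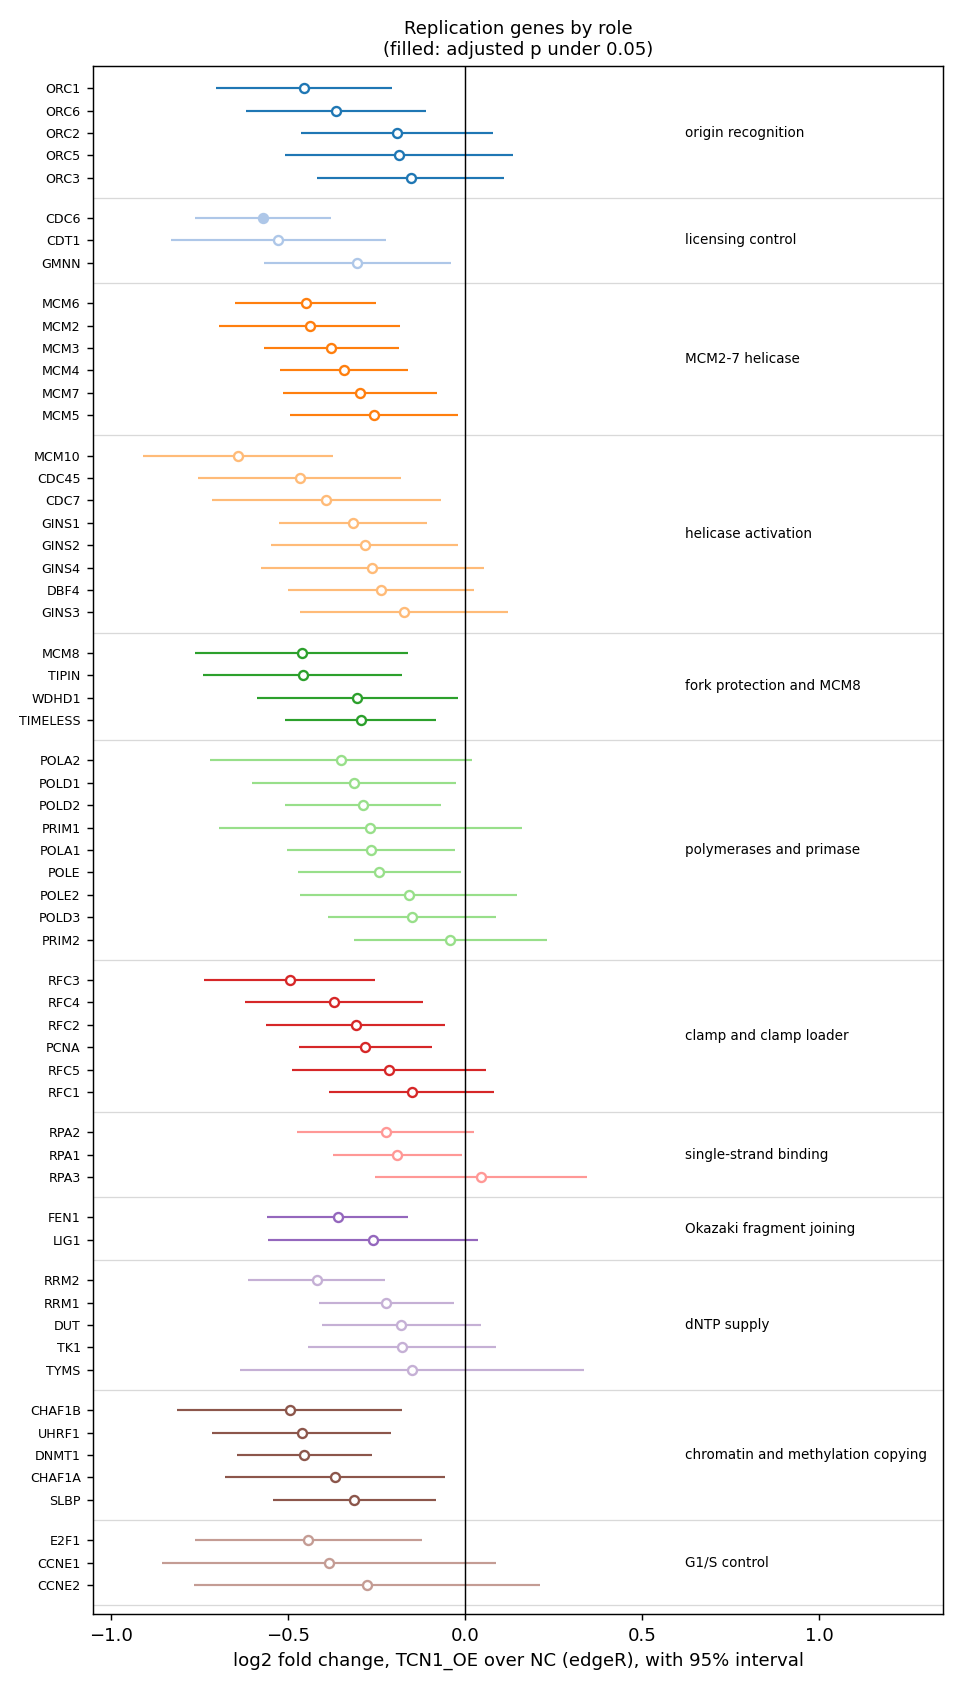
Log2 fold change of each of the 59 replication genes (TCN1_OE over NC, x axis) with its 95% interval from edgeR, grouped by role on the y axis. Filled points have an adjusted p under 0.05. Only CDC6 is filled, 58 of 59 points lie left of 0, and the intervals of 38 genes lie wholly below 0.

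With the line as the only term, the count of called members depended on the test. DESeq2 called 7 members lower (CDC6, CDT1, MCM6, MCM10, RFC3, RRM2 and DNMT1) and 0 higher, where it called 0.928% of the genes it tested lower and 0.903% higher. Limma on log2(FPKM + 0.5) called 0 members, with 28 at an unadjusted p under 0.05 on the lower side, where 5.73% of genes lay. On log2(FPKM + 0.1) limma again called 0, with 27 at an unadjusted p under 0.05 against 5.62% of genes. In all these fits the same 58 members were negative. EdgeR called 2 members with upper-quartile factors (0.351% of all genes tested), 3 with library totals alone (0.417%) and 17 with no filter on low counts (0.941%). Leaving out 1 library gave 5 members without NC replicate 1 (0.820% of all genes tested), 3 without NC replicate 2 (0.682%), 3 without TCN1_OE replicate 1 (0.801%) and 8 without TCN1_OE replicate 2 (0.768%).

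Because the members lay lower together, the promoter windows of these genes are shown here for the letters they share. RefSeq windows of 300 bases on GRCh38.p14, 250 before and 50 after an annotated start, were at hand for 52 of the 59 members. E2F factors are known to bind sequences such as TTTGGCGC, TTTCGCGC and TTTCCCGC. At least 1 of these 3 motifs, read on both strands, occurred in the windows of 26 of the 52 members. The same was true of 5.42% of the 10716 tested genes that have a window, and of 2.74% of all 35116 windows of this length. Of the 36 matches, 4 pairs overlapped one another. The 3 motifs were chosen after counts of several E2F-type motifs had been seen, so these shares describe the windows and test nothing. The stretches below are 30 bases long, 5′ to 3′ on the gene's strand, with the matches in capitals, and were picked to show licensing factors, subunits of the MCM ring, factors of the fork and of methylation copying, and E2F1.
CDC6, chr17:40287875-40287904, plus strand: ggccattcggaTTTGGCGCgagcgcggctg
MCM2, chr3:127598402-127598431, plus strand: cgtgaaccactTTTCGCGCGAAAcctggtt
MCM3, chr6:52284728-52284757, minus strand: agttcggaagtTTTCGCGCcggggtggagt
MCM6, chr2:135876515-135876544, minus strand: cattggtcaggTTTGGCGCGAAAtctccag
MCM7, chr7:100101388-100101417, minus strand: ggggggcgacgTTTCGCGCcaatttcggtt
CDT1, chr16:88803743-88803772, plus strand: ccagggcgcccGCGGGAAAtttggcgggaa
RFC3, chr13:33818083-33818112, plus strand: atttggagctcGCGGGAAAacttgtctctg
TIPIN, chr15:66356733-66356762, minus strand: ccccgcacggaTTTGGCGCCAAAcgctgcg
DNMT1, chr19:10194937-10194966, minus strand: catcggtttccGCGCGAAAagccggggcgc
E2F1, chr20:33686387-33686416, minus strand: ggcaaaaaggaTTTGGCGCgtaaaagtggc
In MCM2, MCM6 and TIPIN a match on one strand overlaps a match on the other, which makes the capitals longer than 8 letters. MCM6 holds 4 matches in its window, the others shown 1 or 2. The match of CDC6 begins 8 bases after the RefSeq start.

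The 26 members with a match had a median log2 fold change of -0.33 and the 26 without one a median of -0.31, and all of both sets were negative. The difference between these medians was not tested. MCM10, the member farthest below 0, is among those without a match. CCAAT, the letters bound by the factor NF-Y, occurred in 57.7% of the members' genes and in 42.9% of the tested genes with a window, and TTTGAA, the core of the CHR element of late cell cycle genes, in 5.77% against 13.9%. The 250 bases before the start of CDC6, shown because it is the called member, hold CCAAT or its reverse complement 3 times, 126, 103 and 50 bases before the start, in capitals here.
CDC6, chr17:40287629-40287878, plus strand: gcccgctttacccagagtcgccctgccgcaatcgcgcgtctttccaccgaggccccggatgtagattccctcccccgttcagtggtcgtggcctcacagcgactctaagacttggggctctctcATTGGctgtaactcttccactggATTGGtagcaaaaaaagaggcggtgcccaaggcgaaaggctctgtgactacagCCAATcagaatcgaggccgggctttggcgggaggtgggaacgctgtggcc

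Licensing control held the called gene. CDC6 (ENSG00000094804, chromosome 17, 40287633 to 40304657 of GRCh38, plus strand, no exonic base under another listed gene), the ATPase that loads the MCM ring, had 36.9 and 35.7 FPKM in NC and 24.8 and 24.2 FPKM in TCN1_OE. The groups stood well apart beside the spread within them. Its log2 fold change was -0.57 ± 0.09 (SE), 32.7% lower, with an edgeR adjusted p of 0.0323. CDT1, its partner in loading, had 27.1 and 35.5 FPKM in NC and 21.6 and 21.8 FPKM in TCN1_OE. Both TCN1_OE values were below both NC values, but the NC libraries differed from each other by 0.41 on the log2 scale of CPM, and its log2 fold change of -0.53 ± 0.14 did not pass edgeR (adjusted p 0.140). GMNN, which encodes geminin, the inhibitor of CDT1, had 17.1 and 18.7 FPKM in NC and 15.1 and 13.9 FPKM in TCN1_OE, a log2 fold change of -0.30 ± 0.12. The loader and its inhibitor thus lay on the same side.

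The 5 origin recognition genes among the members had differences of unequal size. ORC1, the subunit known to vary over the cell cycle, had 16.1 and 15.3 FPKM in NC and 11.5 and 11.5 FPKM in TCN1_OE, a log2 fold change of -0.46 ± 0.11 (edgeR adjusted p 0.122). ORC6 had 11.5 and 11.3 FPKM in NC and 8.55 and 9.25 FPKM in TCN1_OE, at -0.36 ± 0.11. ORC2, ORC3 and ORC5, subunits of the stable core, stood at -0.19 ± 0.12, -0.15 ± 0.12 and -0.19 ± 0.14, and their 95% intervals all reached past 0, to 0.08, 0.11 and 0.13. ORC4, a further subunit that is not among the 59 genes, had 5.75 and 4.56 FPKM in NC and 5.32 and 5.05 FPKM in TCN1_OE, a log2 fold change of -0.00085 ± 0.13. The differences between subunits were not tested.

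All 6 genes of the MCM2 to MCM7 ring, the motor of the replicative helicase, had TCN1_OE libraries wholly below the NC libraries. The same held for 21.8% of all genes tested. The summed share of counts of the 6 genes was 0.146 ± 0.0062% for NC and 0.115 ± 0.0038% for TCN1_OE (SD, n = 2). MCM6 had 34.6 and 34.7 FPKM in NC and 25.6 and 25.2 FPKM in TCN1_OE, the tightest pairs of the 6, with a log2 fold change of -0.45 ± 0.09 (edgeR adjusted p 0.0638). MCM2 stood at -0.44 ± 0.11, MCM3 at -0.38 ± 0.09 and MCM4 at -0.34 ± 0.08. MCM7 and MCM5 had the smallest differences, -0.30 ± 0.10 and -0.26 ± 0.11. None of the 6 passed edgeR, the adjusted p running up to 0.343, while all 6 had an unadjusted p under 0.05. At that p 6.81% of all genes tested lay lower. Levels per length differed more between subunits than between lines: in NC, MCM7 stood at 75.9 ± 4.46 FPKM, MCM3 at 58.1 ± 1.72, MCM4 at 44.3 ± 0.54, MCM6 at 34.6 ± 0.08, MCM2 at 33.5 ± 3.61 and MCM5 at 17.1 ± 1.37. These levels depend on the gene lengths the authors used, and 23.6% of the exonic bases of MCM2 and 8.94% of those of MCM7 lie under another listed gene.

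**Figure D2:**
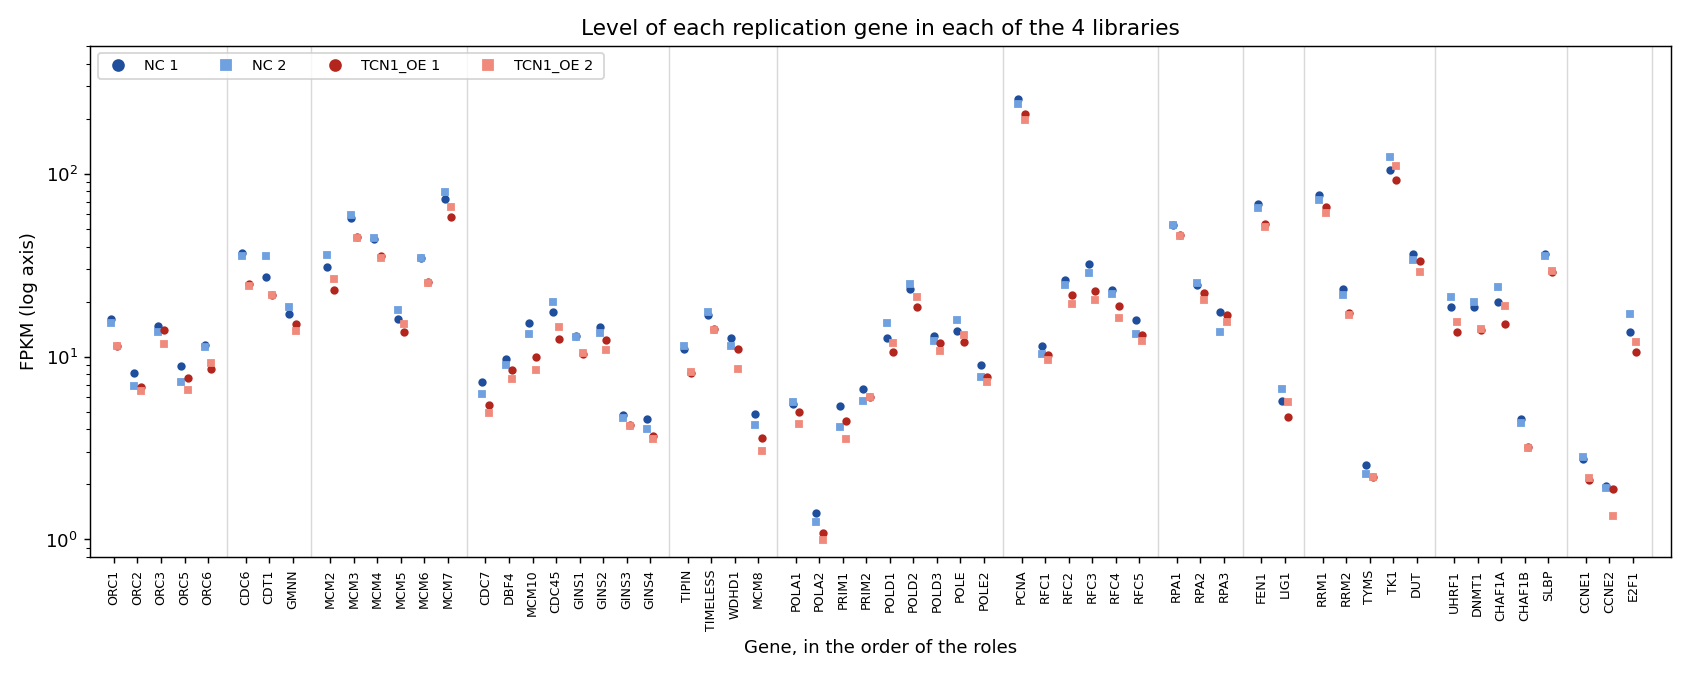
FPKM of each of the 59 replication genes in each library (y axis, log scale), with genes on the x axis in the order of their roles, blue for NC and red for TCN1_OE, circles for replicate 1 and squares for replicate 2. PCNA is the highest, between 197 and 256 FPKM, and POLA2 the lowest, between 0.999 and 1.40 FPKM, and in most genes both red points lie below both blue points.

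Helicase activation genes were all on the lower side, and all 8 had groups that did not overlap. Of all genes tested, 21.8% lay lower without overlap. MCM10, which is needed to activate the loaded helicase, had 15.3 and 13.2 FPKM in NC and 9.91 and 8.48 FPKM in TCN1_OE. This was the largest difference of the 59 genes, a log2 fold change of -0.64 ± 0.12, or 35.9% lower, just short of a call with an edgeR adjusted p of 0.0544. CDC45, a cofactor of the moving helicase, had 17.5 and 19.8 FPKM in NC and 12.6 and 14.5 FPKM in TCN1_OE, at -0.47 ± 0.13. The kinase gene CDC7 stood at -0.39 ± 0.14, with 7.25 and 6.26 FPKM in NC and 5.43 and 4.91 FPKM in TCN1_OE, and its activator DBF4 at -0.24 ± 0.12. The 4 GINS subunits, which form 1 complex, stood between -0.32 ± 0.09 for GINS1 and -0.17 ± 0.13 for GINS3. GINS1 had 12.9 FPKM in both NC libraries and 10.3 and 10.4 FPKM in TCN1_OE, while GINS3 had 4.80 and 4.64 FPKM against 4.21 and 4.19 FPKM.

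Of the fork genes, TIPIN and TIMELESS form the fork protection complex that keeps helicase and polymerase together. TIPIN had 11.0 and 11.5 FPKM in NC and 8.12 and 8.24 FPKM in TCN1_OE, a log2 fold change of -0.46 ± 0.13, and TIMELESS stood at -0.29 ± 0.10. WDHD1, which links the helicase to polymerase alpha, stood at -0.30 ± 0.13, and its TCN1_OE libraries, at 11.0 and 8.56 FPKM, differed from each other by about as much as the lines did. MCM8, a relative of the ring subunits known for a role in recombination, stood at -0.46 ± 0.13. All 4 genes had an unadjusted edgeR p under 0.05 and none was called. On the lower side 6.81% of all genes tested had such a p.

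The 9 polymerase and primase genes showed smaller differences, with a median of -0.27 and 4 of 9 at an unadjusted edgeR p under 0.05. Among all genes tested 6.81% lay lower at that p. The summed share of counts of the 9 genes was 0.0694 ± 0.0022% for NC and 0.0587 ± 0.0013% for TCN1_OE, 15.4% lower. The catalytic subunits POLA1, POLD1 and POLE of the 3 replicative polymerases stood at -0.27 ± 0.11, -0.31 ± 0.13 and -0.24 ± 0.10. POLE, for example, had 13.9 and 15.8 FPKM in NC and 11.9 and 13.2 FPKM in TCN1_OE. POLD2, the small subunit of polymerase delta, stood at -0.29 ± 0.10, and POLD3 and POLE2 at -0.15 ± 0.11 and -0.16 ± 0.14. With 1 library left out, POLA1 ran from -0.37 to -0.17 and POLD1 from -0.44 to -0.17. POLE then ran from -0.33 to -0.14 and POLD2 from -0.39 to -0.19. PRIM2, the large primase subunit, had 6.65 and 5.71 FPKM in NC and 6.05 and 6.03 FPKM in TCN1_OE, so both TCN1_OE values lay between the NC values. Its log2 fold change was -0.04, with a 95% interval from -0.32 to 0.23. PRIM1, the catalytic primase subunit, stood at -0.27 ± 0.19 with overlapping groups. POLA2 was the lowest member, with 1.32 ± 0.10 FPKM for NC and 1.04 ± 0.06 FPKM for TCN1_OE (SD, n = 2), with 35.1% of its annotated exonic bases under another listed gene.

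PCNA, the clamp, was the most abundant member per length, with 256 and 242 FPKM in NC and 213 and 197 FPKM in TCN1_OE. Its log2 fold change was -0.28 ± 0.08, without a call (edgeR adjusted p 0.196). The 5 subunits of replication factor C, which opens the clamp and sets it on DNA, spread more widely. RFC3 had 32.1 and 28.8 FPKM in NC and 23.0 and 20.4 FPKM in TCN1_OE, a log2 fold change of -0.50 ± 0.11 (edgeR adjusted p 0.0878). RFC4 and RFC2 stood at -0.37 ± 0.11 and -0.31 ± 0.11. RFC5 stood at -0.21 ± 0.12, and RFC1, the large subunit, at -0.15 ± 0.10, with 95% intervals that reached 0.06 and 0.08. The 3 genes of the single-strand binding complex RPA had a summed share of counts 10.4% lower in TCN1_OE. RPA1, its large subunit, had 52.7 and 52.4 FPKM in NC and 46.5 and 45.8 FPKM in TCN1_OE, at -0.19 ± 0.08, and RPA2 stood at -0.22 ± 0.11. RPA3, the smallest subunit and the only member with a positive value, had 17.6 and 13.7 FPKM in NC and 17.0 and 15.5 FPKM in TCN1_OE. Both TCN1_OE values lay between those of NC, and the log2 fold change was 0.05 with a 95% interval from -0.25 to 0.34.

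FEN1, the nuclease that trims the 5′ flaps of Okazaki fragments, had 68.2 and 65.0 FPKM in NC and 53.0 and 51.1 FPKM in TCN1_OE, a log2 fold change of -0.36 ± 0.09 (edgeR adjusted p 0.125). LIG1, which seals the fragments, had 5.70 and 6.64 FPKM in NC and 4.68 and 5.64 FPKM in TCN1_OE. Its groups came close to each other in FPKM and overlapped in CPM, at -0.26 ± 0.13.

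Among the genes of deoxynucleotide supply, RRM2 stood apart from the rest in size. RRM2, the subunit of ribonucleotide reductase known to be made in S phase, had 23.6 and 21.9 FPKM in NC and 17.2 and 16.9 FPKM in TCN1_OE, at -0.42 ± 0.09 (edgeR adjusted p 0.0718). RRM1, the partner subunit, had 76.2 and 71.7 FPKM in NC and 66.1 and 61.2 FPKM in TCN1_OE, at -0.22 ± 0.08. DUT, which removes dUTP, and the thymidine kinase gene TK1 both stood at -0.18, with SE of 0.10 and 0.12. With 1 library left out, DUT ran from -0.28 to -0.09 and TK1 from -0.33 to -0.04. TK1 had 105 and 123 FPKM in NC and 91.9 and 110.2 FPKM in TCN1_OE, and here replicate 2 exceeded replicate 1 in both lines. TYMS, thymidylate synthase, rests on few reads, 123 and 64 counts in NC and 88 and 78 in TCN1_OE, and its log2 fold change of -0.15 had a 95% interval from -0.63 to 0.34. Of its annotated exonic bases, 46.6% lie under ENOSF1 and TYMSOS, on which the counting rule is not given in the sources used here. DUT has 8 annotated pseudogenes, and 10 members have at least 1 pseudogene that carries their name, so their counts are less certain.

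The 5 genes that copy chromatin states and serve histone supply had a median of -0.45, and all 5 had an unadjusted edgeR p under 0.05. That p was reached on the lower side by 6.81% of all genes tested. Summed, the 5 genes accounted for 0.0585 ± 0.0031% of NC counts and 0.0436 ± 0.0020% of TCN1_OE counts, 25.4% lower. DNMT1, the maintenance DNA methyltransferase, had 18.7 and 19.8 FPKM in NC and 14.1 and 14.2 FPKM in TCN1_OE, a log2 fold change of -0.45 ± 0.09 (edgeR adjusted p 0.0551). UHRF1, which brings DNMT1 to newly copied DNA, had 18.7 and 21.3 FPKM in NC and 13.7 and 15.4 FPKM in TCN1_OE, at -0.46 ± 0.11. CHAF1B and CHAF1A, subunits of the chromatin assembly factor that deposits histones at the fork, stood at -0.50 ± 0.14 and -0.37 ± 0.14. With 1 library left out, CHAF1A ran from -0.55 to -0.20. SLBP, which binds the stem-loop of histone mRNA, had 36.6 and 35.5 FPKM in NC and 28.9 and 29.4 FPKM in TCN1_OE, at -0.31 ± 0.10.

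E2F1, the transcription factor of the G1/S switch, had 13.7 and 17.1 FPKM in NC and 10.6 and 12.0 FPKM in TCN1_OE, a log2 fold change of -0.44 ± 0.14 (edgeR adjusted p 0.229). With 1 library left out it ran from -0.60 to -0.27. The cyclin E genes were low, CCNE1 with NC libraries of 2.75 and 2.84 FPKM and TCN1_OE libraries of 2.11 and 2.18 FPKM, and CCNE2 at 1.97 and 1.92 against 1.88 and 1.34 FPKM. The difference of CCNE2 rested on its second TCN1_OE library: it was -0.07 between the replicate 1 libraries and -0.49 between the replicate 2 libraries. CCNE2 also has 37.1% of its exonic bases under another listed gene.

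Set side by side, licensing control had the lowest median of the roles (-0.53 over 3 genes), followed by chromatin and methylation copying (-0.45), the G1/S genes (-0.39), fork protection with MCM8 (-0.38) and the MCM ring (-0.36). Okazaki fragment joining (-0.31), helicase activation (-0.30), the clamp and its loader (-0.30) and the polymerases (-0.27) came next. Origin recognition, RPA and deoxynucleotide supply stood at -0.19, -0.19 and -0.18. The roles hold between 2 and 9 genes, and the differences between roles were not tested. Over the 59 members the log2 fold change had a Pearson correlation of -0.07 with the log2 of the mean FPKM (Spearman -0.14), a description of genes that share the same 4 libraries.

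The difference can also be read at each replicate number, though the labels do not say what a number shares between lines. Between the replicate 1 libraries the median difference of the members was -0.29 on the log2(CPM + 0.5) scale, and between the replicate 2 libraries -0.31. At both numbers 57 of 59 members were lower in TCN1_OE, where 34.3% of all genes tested were. PRIM2 and RPA3 were the exceptions, with 0.08 and 0.18 between the replicate 2 libraries. For the 53 members without overlap, lower values at both numbers follow from that alone, however the libraries are matched. CDC6 stood at -0.58 and -0.56 and MCM10 at -0.63 and -0.64, while CDT1 stood at -0.33 and -0.70.

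**Figure D3:**
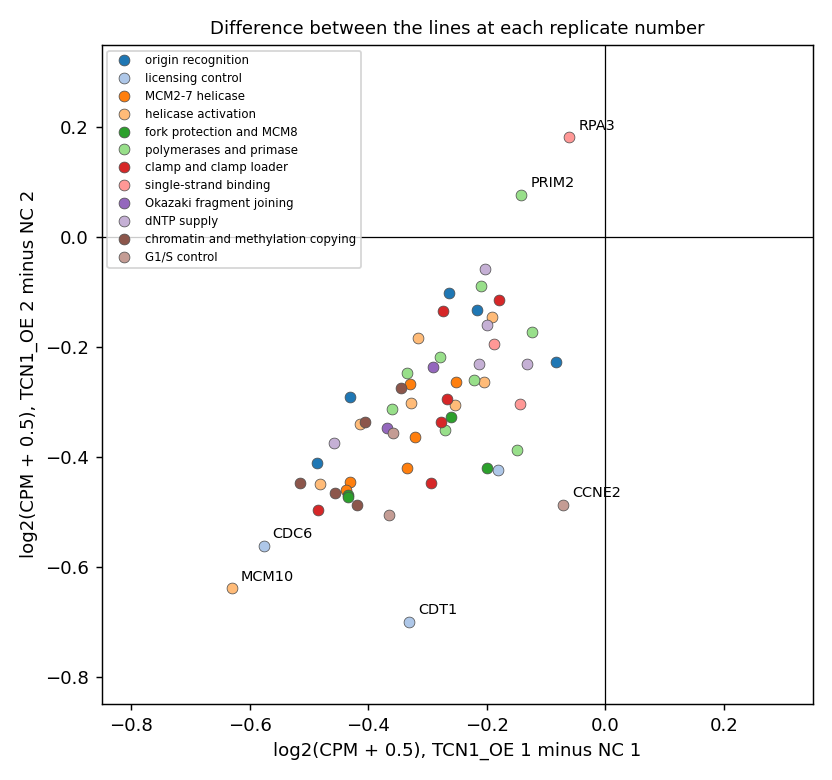
Difference of each replication gene between the lines on the log2(CPM + 0.5) scale, replicate 1 libraries on the x axis and replicate 2 libraries on the y axis, coloured by role. All but PRIM2 and RPA3 lie below 0 on both axes, and MCM10 and CDC6 lie farthest toward the lower left.

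A second pattern ran through the members, between the replicates of each line, and shared shifts were seen in other gene lists too. MCM2, CDC45, UHRF1, CHAF1A, TK1 and POLE were higher in replicate 2 than in replicate 1 in both lines, CHAF1A by 0.28 in NC and 0.35 in TCN1_OE, and PRIM1, MCM10 and MCM8 were lower in replicate 2 in both, PRIM1 by -0.35 and -0.29. These genes were picked after their values were seen. Across the 59 members the replicate difference in NC and that in TCN1_OE, which share no library, had a Pearson correlation of 0.71 (Spearman 0.71). Across all genes tested, genes of low count among them, the Pearson correlation was 0.199, and no genes of like level were compared. Median replicate differences in NC and TCN1_OE were 0.16 and 0.16 for the 14 keratinocyte markers. They were -0.11 and -0.10 for the G2/M and mitosis list and -0.08 and -0.07 for the DNA repair list. Melanocyte and leukocyte markers, with 3 and 2 genes tested, had medians of opposite sign in the lines. The pattern was thus not shown to be particular to the members. In the members both replicate differences moved with the GC content of the longest annotated transcript, which was taken for the members only. Pearson correlations with GC were 0.75 in NC and 0.76 in TCN1_OE (Spearman 0.68 and 0.73). The log2 fold change between lines had a correlation of -0.21 with GC (Spearman -0.22). All are descriptions across genes of the same libraries, and the part of GC in the fold changes was not tested.

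**Figure D4:**
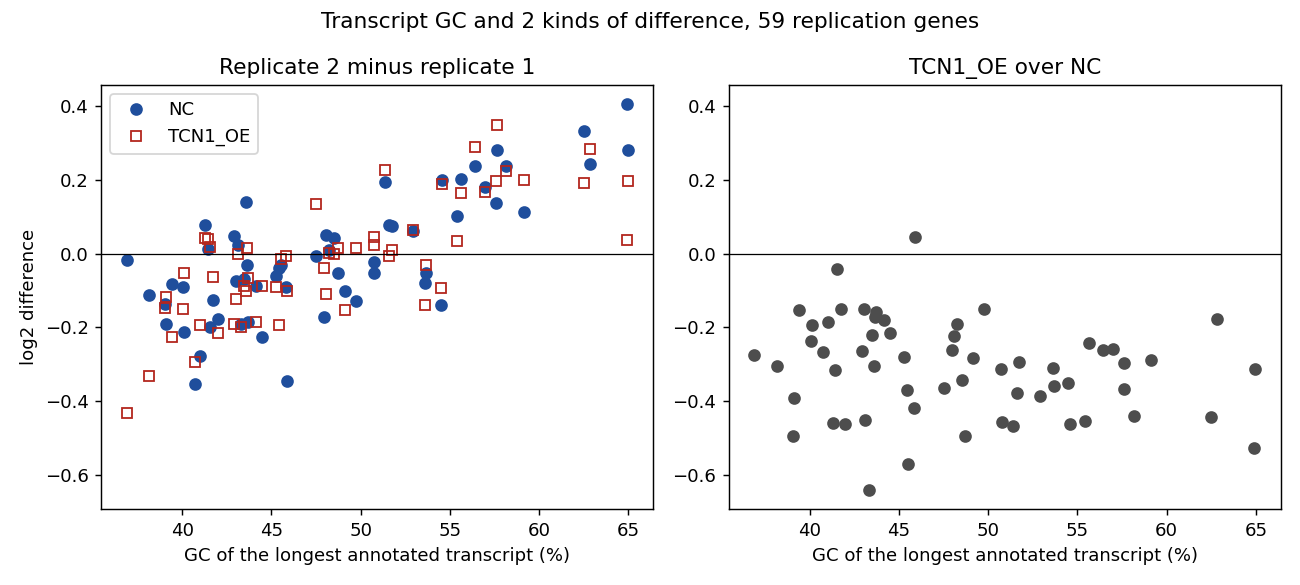
Log2 differences (y axis) of the 59 replication genes against the GC content of their longest annotated transcript (x axis). On the left, replicate 2 minus replicate 1 within NC (blue circles) and within TCN1_OE (red squares) rises with GC, and on the right the TCN1_OE over NC log2 fold change lies below 0 across the whole GC range except for RPA3.

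Other genes of the same processes, from lists that hold no member, lay lower as well. Of 32 tested further replication genes, 25 were negative and 7 positive, with a median of -0.22 and 0 called by edgeR. At an unadjusted p under 0.05, 14 of them lay lower and 1 higher, and DESeq2 called 1 lower. For all genes tested these shares were 6.81%, 6.00% and 0.928%. DTL, which helps to destroy CDT1 at the fork, stood at -0.51 ± 0.10, DSCC1, a subunit of an alternative clamp loader, at -0.57 ± 0.14, and MCMBP, a binding partner of MCM subunits, at -0.41 ± 0.10. Of 22 further nucleotide supply genes, 18 were negative, with a median of -0.30. EdgeR called 2 of them lower, where it called 0.212% of all genes tested lower. At an unadjusted edgeR p under 0.05, 10 lay lower and 0 higher, and DESeq2 called 4 lower, beside the same shares of all genes as above. CTPS1, which makes CTP, fell from 4.92 and 4.54 FPKM in NC to 2.49 and 2.39 FPKM in TCN1_OE, a log2 fold change of -0.96 ± 0.11 (edgeR adjusted p 0.0091). The purine synthesis enzyme PAICS fell by 0.58 on the log2 scale (edgeR adjusted p 0.0328), and CAD, which starts pyrimidine synthesis, stood at -0.57 ± 0.11 without a call.

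In the E2F and RB family list, which also holds G1 cyclins and CDK inhibitors, 16 of 22 tested genes were negative, with a median of -0.16 and 0 called by edgeR. At an unadjusted p under 0.05, 7 lay lower and 2 higher, and DESeq2 called 1 lower. The shares over all genes tested, here and for the lists below, were 6.81%, 6.00% and 0.928%. The phosphatase CDC25A, an activator of CDK2, had 5.98 and 6.37 FPKM in NC and 3.91 and 4.01 FPKM in TCN1_OE, at -0.64 ± 0.14, and E2F3 stood at -0.41 ± 0.12. The CDK inhibitor CDKN1A (p21) lay on the other side. Its libraries held 48.6 and 56.8 FPKM for NC and 64.7 and 73.9 FPKM for TCN1_OE, a log2 fold change of 0.39 ± 0.11 without a call (edgeR adjusted p 0.179). The G2/M and mitosis list had a median of -0.19, with 43 of 47 negative and 0 called by edgeR. There 16 lay lower at an unadjusted p under 0.05, and DESeq2 called 1 lower. The DNA repair list had a median of -0.21, with 36 of 40 negative and 0 called by edgeR. There 16 lay lower at an unadjusted p under 0.05, and DESeq2 called 4 lower. The members' median of -0.30 was thus farther from 0 than those of the G2/M and DNA repair lists. It was about equal to that of the further nucleotide supply genes, also -0.30. These comparisons were not tested.

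**Figure D5:**
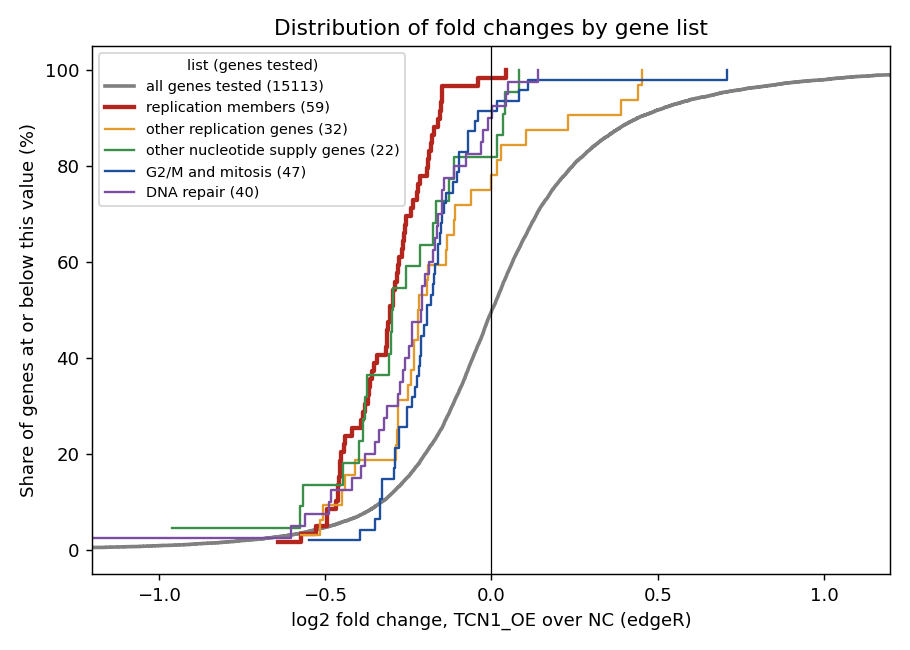
Share of genes (y axis, %) at or below each log2 fold change (x axis, TCN1_OE over NC, shown from -1.2 to 1.2) for the 59 replication members, 4 further gene lists and all 15113 genes tested. The median of the members is -0.30 and that of all genes tested 0.0016.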

How the data were processed

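PolyA RNA-seq of 2 NC and 2 TCN1_OE libraries of HaCaT cells was used. Per the labels' protocols, libraries were made with an NEBNext Ultra RNA kit. Per the submitters' processing notes, HISAT2 served as aligner and HTSeq 0.13.5 as counter, on GRCh38. For the annotation release and the handling of strand and multi-mapped reads, the sources used here give nothing. Per the file headers, each gene has a raw count and an FPKM, both deposited by the authors. The FPKM was made by the authors from the count, since count, FPKM and library total gave a whole gene length in 100% of values above 0, within 1e-04 bp.

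Counts were tested with edgeR 4.0.16 in R 4.3.3 (quasi-likelihood test, robust, TMM factors, group as the only term, filterByExpr with a minimum count of 10), with Benjamini-Hochberg adjustment over all 15113 genes and a threshold of 0.05. SE is the log2 fold change divided by the root of F. The smallest two-sided p of an exact permutation test in this design is 0.333, so the tests borrow the spread of other genes. The edgeR step was tested on simulated counts with a single dispersion for all genes and planted differences larger than those of most members. That check therefore does not show how well differences of the sizes reported here are found. Alternatives were DESeq2 1.42.0, limma 3.58.1 on log2 FPKM, other scaling factors and filters, each library left out in turn and a replicate block. Positions and exon overlaps come from GENCODE 29 (GRCh38), whose exonic length equalled the deposited length for 13 members, so the authors' annotation was another. The overlap shares therefore describe GENCODE 29 and may not hold for the gene models that were counted. The members, roles and lists were chosen with earlier results of these data known. All members could be named, and from each further list up to 3 genes with the smallest p, besides any called.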

Additional observations from a re-analysis of the deposited data

How the results depend on the processing

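The median log2 fold change of the 59 members lay between -0.33 and -0.28 under the 13 alternatives run. The count of members called lower was 1 with RLE factors (0.199% of all genes tested) and with a filter at 1 FPKM (0.122%), as in the edgeR fit reported (0.212%). It was 2 with upper-quartile factors (0.351%), 3 with library totals only (0.417%), 7 with DESeq2 (0.928%) and 17 with no filter on low counts (0.941%). It was 0 with limma on log2(FPKM + 0.5), with 28 members and 5.73% of all genes it tested lower at an unadjusted p under 0.05. On log2(FPKM + 0.1) it was also 0, with 27 members and 5.62% of genes lower at that p. With 1 library left out it ran from 3 to 8: 5 without NC replicate 1, 3 without NC replicate 2, 3 without TCN1_OE replicate 1 and 8 without TCN1_OE replicate 2. There the lone library of a line is assumed to vary like the pair of the other. The cause of these moves was not tested. The share of all genes called lower moved too, from 0% in both limma fits to 0.941% with no filter, the replicate block below apart. CDC6 was called under 11 of the 13 alternatives, with a log2 fold change between -0.59 and -0.55. Its adjusted p was 0.254 and 0.289 in the limma fits. RPA3 turned negative when NC replicate 2 (-0.11) or TCN1_OE replicate 1 (-0.0078) was left out, and over the 4 omissions ran from -0.11 to 0.24. PRIM2 turned positive without NC replicate 1 (0.075) and ran from -0.13 to 0.075. Leaving out 1 library moved the log2 fold change of 25 members, none of them CDC6 or MCM10, by over 1.5 times. With all 4 libraries the count of members without overlap ran from 51 to 54, where 16.9% to 22.1% of genes had none. With 1 left out, where non-overlap comes more easily, it ran from 54 to 57, where 34.9% to 36.5% of genes had none.

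The labels do not say what a replicate number shares between lines. Across all genes, the replicate differences of the lines had a correlation of 0.199. With the replicate number as a block, edgeR called 44 members lower, where 11.0% of all genes tested were called lower. The lowest count of a member in any library was 64, and TYMS, CCNE1 and CCNE2, with SE of 0.22, 0.21 and 0.22, were the members with the largest SE.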
